A study of Mus musculus with 34 samples.

Results

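Dividing T cells were 2820 of the 19960 T cells found among 43197 cells of MMTV-Wnt1 mammary tumours, which is 14.1% of the T cells. They were chosen by measured values. A cell counted as a T cell when it held 500 or more UMIs (unique molecular identifiers, which count captured RNA molecules) and 200 or more genes, had under 20% mitochondrial UMIs, carried 2 or more UMIs of Cd3d, Cd3e and Cd3g together, and carried under 2 UMIs each of Krt18 and Lyz2. A T cell counted as dividing with 3 or more UMIs of Mki67 and Top2a together. The 12541 T cells with none are called non-dividing below, and the 4599 with 1 or 2 were set aside. The limits on Krt18, a keratin of epithelial cells, and Lyz2, a lysozyme of myeloid cells, removed 680 further cells that passed every other step.

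MMTV-Wnt1 tumours arise from a Wnt1 transgene that the mouse mammary tumour virus promoter drives in mammary epithelium, and here they grew as transplants in C57BL6/j hosts with their own T cells. The hosts of the unsorted tumours were labelled as wild-type females, 6 to 8 weeks old at transplantation. The 6 T cell libraries held magnetically extracted CD4/8-positive cells, 1 library for each treatment. In 4 of them mice received 5 doses of 4 mg/kg doxorubicin and, 48 h later, 3 antibody doses 72 h apart, with harvest 24 h after the last: 200 ug anti-PD1 with 200 ug IgG, 200 ug anti-CTLA4 with 200 ug IgG, 200 ug of both, or 400 ug of IgG alone. Another library came 48 h after the same course of doxorubicin with no antibody, and the last from untreated tumours. CD45-positive immune cells gave 2 libraries 48 h after doxorubicin and 2 from untreated tumours, and a further table pooled unsorted cells of a doxorubicin-treated and an untreated tumour. The labels do not say which animals a library came from, so p-values below measure only the spread between these libraries. Doxorubicin is an anthracycline that blocks topoisomerase II, the enzyme that Top2a encodes.

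A T cell that meets its antigen with costimulation leaves rest, grows, copies its DNA in S phase and separates the copies in mitosis. Passage into S phase is driven by cyclin-dependent kinases, which inhibitors such as p27 (Cdkn1b) hold back in resting cells, and by E2F factors, which switch on the replication genes. The genes of G2 and mitosis are switched on later, by the B-Myb and FoxM1 complexes, which act through a CHR element (TTTGAA) and CCAAT boxes in their promoters. PD1 and CTLA4 are receptors that restrain T cell activation, and antibodies against them are used to release T cells in tumours.

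The promoters of 4 genes are printed because they show these elements in genes of both phases that were higher in dividing T cells. They come from RefSeq, build GRCm38.p6, and run 5′ to 3′ on the gene's own strand from 250 bases before the annotated start to 50 after it. Capitals mark each match, on either strand, to the CHR element (TTTGAA), the CCAAT box (CCAAT) or an E2F element (GCGGGAA). Hmmr, which encodes a spindle protein, lies on the minus strand at chr11:40733388-40733687. Cdk1, the kinase that starts mitosis, lies on the minus strand at chr10:69352863-69353162. Pclaf, a partner of the replication clamp PCNA, lies on the plus strand at chr9:65890073-65890372. Mcm3, a subunit of the replicative helicase, lies on the minus strand at chr1:20820263-20820562.
Hmmr: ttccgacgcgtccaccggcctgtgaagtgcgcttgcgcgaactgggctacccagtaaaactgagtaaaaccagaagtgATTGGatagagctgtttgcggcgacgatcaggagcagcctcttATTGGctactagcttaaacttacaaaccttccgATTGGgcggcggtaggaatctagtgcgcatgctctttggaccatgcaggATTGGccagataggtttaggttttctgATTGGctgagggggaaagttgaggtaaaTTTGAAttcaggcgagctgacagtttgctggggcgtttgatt
Cdk1: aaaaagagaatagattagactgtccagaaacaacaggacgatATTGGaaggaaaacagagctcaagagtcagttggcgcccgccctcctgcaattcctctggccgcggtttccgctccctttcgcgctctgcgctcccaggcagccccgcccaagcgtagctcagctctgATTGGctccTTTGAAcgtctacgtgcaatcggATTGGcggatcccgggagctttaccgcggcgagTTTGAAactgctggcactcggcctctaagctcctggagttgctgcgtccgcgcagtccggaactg
Pclaf: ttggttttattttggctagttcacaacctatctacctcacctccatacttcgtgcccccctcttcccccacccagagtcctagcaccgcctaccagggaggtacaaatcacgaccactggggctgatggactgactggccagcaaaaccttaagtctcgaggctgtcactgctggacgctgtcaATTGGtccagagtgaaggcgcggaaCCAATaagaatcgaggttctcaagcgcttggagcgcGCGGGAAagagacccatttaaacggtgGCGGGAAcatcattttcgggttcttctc
Mcm3: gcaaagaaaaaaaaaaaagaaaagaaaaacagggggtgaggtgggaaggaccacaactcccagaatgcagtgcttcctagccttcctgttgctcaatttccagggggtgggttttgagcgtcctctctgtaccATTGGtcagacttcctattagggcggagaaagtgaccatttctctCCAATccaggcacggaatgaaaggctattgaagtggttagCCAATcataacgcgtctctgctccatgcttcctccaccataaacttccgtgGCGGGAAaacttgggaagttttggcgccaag
Hmmr held 1 CHR element and 5 CCAAT boxes, and Cdk1 held 2 CHR elements and 3 CCAAT boxes. Pclaf and Mcm3 held no CHR element, but 2 and 1 E2F elements with 2 and 3 CCAAT boxes.

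The rule's own genes were found in nearly all members, as the rule requires, and so were T cell genes outside it. Over the 6 T cell libraries, Top2a was detected in 94.0% to 97.6% of dividing cells, Mki67 in 79.0% to 90.2% and Cd3e in 97.3% to 99.4%. Trac, the constant part of the T cell receptor alpha chain, was detected in 98.4% to 99.4% of dividing cells. Pclaf was detected in 69.0% to 86.1% of dividing cells, against 1.56% to 3.74% of non-dividing T cells. Dividing cells had a median of 14987 to 21818.5 UMIs per cell, against 5157 to 8974.5 in non-dividing T cells, a gap that the rule itself widens because a deeper cell more easily reaches 3 UMIs. The mitochondrial share was alike, at medians of 2.55% to 3.59% in dividing and 2.72% to 3.81% in non-dividing cells. Just inside the threshold, 44 to 110 cells a library held exactly 3 UMIs of Mki67 and Top2a, at a median of 11618 to 14266 UMIs per cell. Just outside it, 127 to 241 cells a library held 2, at 8796 to 12639.

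Free RNA can give a UMI to a cell that does not use the gene. Neutrophil-type cells, which do not divide and were taken as cells with 20 or more UMIs of S100a8 and S100a9 and none of the Cd3 genes, passed the division threshold in 0% to 7.23% of cells in the 10 sorted libraries. The highest share was 6 of 83 cells in untreated immune replicate 2. Those cells were shallower, at medians of 2221 to 5453.5 UMIs. The libraries as a whole held 16908180 to 93748407 UMIs over 1541 to 8529 barcodes, and barcodes shared between libraries were not analysed here. Summed markers of other cells were present in dividing cells of the T cell libraries: 40 to 204 CPM (counts-per-million, a gene’s UMIs scaled to a common total) for 8 epithelial genes, 36.0 to 177 CPM for 8 macrophage genes and 14.0 to 223 CPM for 9 fibroblast and endothelial genes. Sums were 178 to 261 CPM for 9 dendritic cell genes and 766 to 1892 CPM for 9 natural killer (NK) cell genes. Dividing cells of doxorubicin-treated immune replicate 2 held 6301 CPM of the fibroblast and endothelial genes and 2637 CPM of 8 neutrophil genes. Those of untreated immune replicate 2 held 2851 CPM of 8 B or plasma cell genes and 1951 CPM of the dendritic cell genes. Their part in the results was not tested except where a value is given.

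The share of T cells that divided differed between the T cell libraries. Dividing cells were 317 of 3023 T cells (10.5%, 95% exact interval 9.42% to 11.6%) after anti-PD1, 499 of 2575 (19.4%, 17.9% to 21.0%) after anti-CTLA4 and 504 of 2974 (16.9%, 15.6% to 18.3%) after both antibodies. They were 337 of 2799 (12%, 10.9% to 13.3%) after IgG, 414 of 3945 (10.5%, 9.55% to 11.5%) 48 h after doxorubicin and 422 of 2612 (16.2%, 14.8% to 17.6%) without treatment. By this rule the libraries with anti-CTLA4, with both antibodies and with no treatment stood above the rest, with intervals that did not overlap those of the rest. The intervals cover counting error only, and with 1 library per treatment no test between treatments was possible. After each cell was thinned to 2000 UMIs and division was called at 2 or more UMIs, the shares were 5.66% after anti-PD1, 8.41% after anti-CTLA4, 6.67% after both, 5.8% after IgG, 5.36% 48 h after doxorubicin and 8.46% without treatment. The interval after both antibodies (5.79% to 7.63%) then overlapped that after IgG (4.95% to 6.73%). With division taken as 10 or more UMIs of the G2 and mitosis list, IgG (70.4%) lay above no treatment (65.2%). Non-dividing cells of the T cell libraries averaged 8.52 to 14.8 UMIs of that list at full depth, so this limit does not separate dividing cells.

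The immune libraries gave the only replicated comparison of the share. Dividing cells were 12 of 107 T cells (11.2%) and 40 of 395 (10.1%) after doxorubicin, against 185 of 862 (21.5%) and 47 of 254 (18.5%) without treatment. Both doxorubicin libraries lay below both untreated ones. With 10 or more UMIs of the G2 and mitosis list the shares were 72.9% and 50.4% after doxorubicin and 72.2% and 70.9% without treatment. Non-dividing T cells of these libraries averaged 9.79 to 14.1 UMIs of that list at full depth, so this limit does not separate dividing cells. By Mki67 and Top2a the mean was 10.7% ± 0.77 after doxorubicin and 20% ± 2.09 without treatment (SD, n = 2 each). The difference was -9.31 points (two-sided exact permutation test, p = 0.333). With 2 libraries against 2, 0.333 is the smallest p this design allows, so no difference could pass a threshold of 0.05. The T cell libraries, 1 of each, stood at 10.5% 48 h after doxorubicin and 16.2% without treatment.

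**Figure D1:**
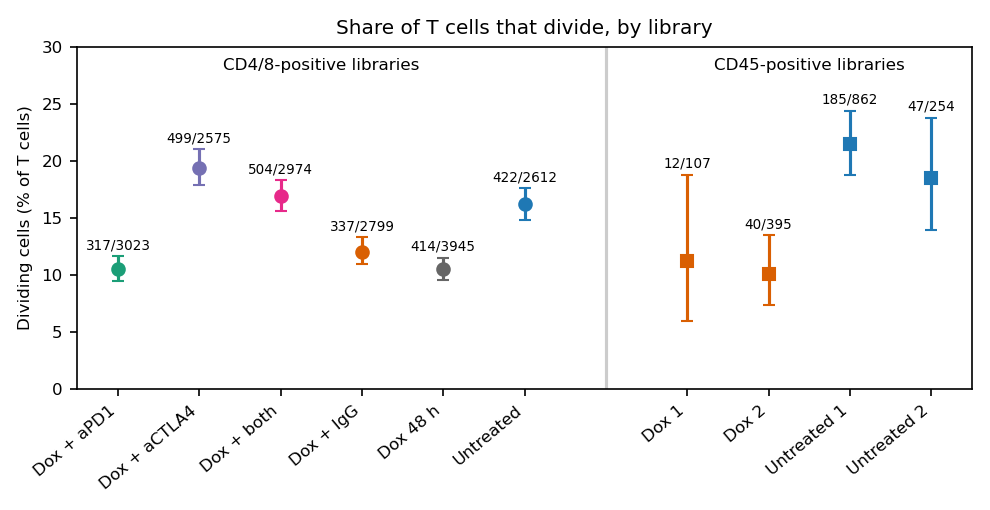
Share of T cells called dividing (percent, vertical axis) in each of the 6 CD4/8-positive and 4 CD45-positive libraries, with exact 95% intervals for counting error. In the CD4/8-positive libraries (aPD1, anti-PD1; aCTLA4, anti-CTLA4; Dox 48 h, doxorubicin alone) the shares ran from 10.5% to 19.4%, and in the CD45-positive libraries both doxorubicin values lay below both untreated ones.

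Most dividing cells of the T cell libraries carried CD8 transcripts. After thinning to 2000 UMIs, cells with a UMI of Cd8a or Cd8b1 and none of Cd4, Foxp3 and Trdc (CD8 cells) were 58.1% of dividing cells after anti-PD1, 76.1% after anti-CTLA4, 71.4% after both, 75.1% after IgG, 67.1% 48 h after doxorubicin and 61.7% without treatment. CD4 cells with no Foxp3, the helper type, were 1.81% to 6.28% of dividing cells. Foxp3 cells, regulatory T cells that restrain other T cells, were 1.01% to 6.67%. Between 16.9% and 28.6% of dividing cells showed none of these genes at that depth.

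Cd8a, the CD8 alpha chain of killer T cells, was detected in 39.7% of dividing against 31.3% of non-dividing cells after anti-PD1, 54.9% against 53.7% after anti-CTLA4 and 54.2% against 55.8% after both. The shares were 53.1% against 51.5% after IgG, 51.7% against 38.6% 48 h after doxorubicin and 45.7% against 31.7% without treatment. The shares were higher in dividing cells of 5 of 6 libraries, by 14.0 points at most and by 6.10 ± 6.62 points on average (SD, n = 6). That difference did not pass the two-sided exact sign-flip permutation test over libraries (p = 0.125, adjusted over the 4 subset genes 0.167). With cells thinned to 4000 UMIs instead, the Cd8a share was higher in dividing cells of every T cell library, by 2.04 to 14.8 points.

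Cd4, the coreceptor of helper and regulatory T cells, was detected in 6.03% of dividing against 8.94% of non-dividing cells after anti-PD1, 2.41% against 4.32% after anti-CTLA4 and 7.14% against 7.38% after both. The shares were 4.75% against 6.12% after IgG, 7.00% against 14.2% 48 h after doxorubicin and 7.14% against 13.1% without treatment. Dividing cells were lower in 6 of 6 libraries, with a difference of -3.26 ± 2.73 points (SD, n = 6; exact sign-flip permutation p = 0.0312, adjusted 0.125), which did not pass after adjustment. With 6 libraries 0.0312 is the smallest p the test allows. At full depth, where dividing cells hold several times the UMIs of the rest, the Cd4 difference was 3.46 points in the opposite direction. With cells thinned to 4000 UMIs, the IgG library alone went the other way, at 7.81% of dividing and 7.23% of non-dividing cells.

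Foxp3, the factor that defines regulatory T cells, was detected in 6.98% of dividing against 4.57% of non-dividing cells after anti-PD1, 1.21% against 0.720% after anti-CTLA4 and 2.38% against 1.97% after both. It was detected in 3.86% against 4.36% after IgG, 2.90% against 2.11% 48 h after doxorubicin and 5.48% against 8.10% without treatment. The difference of 0.163 ± 1.66 points (SD, n = 6) went either way between libraries (exact sign-flip permutation p = 0.75, adjusted 0.75). Trdc, the constant part of the gamma delta T cell receptor, was found in 0% to 1.39% of dividing and 0.576% to 1.66% of non-dividing cells, a difference of -0.252 ± 0.288 points (SD, n = 6; exact sign-flip permutation p = 0.0938, adjusted 0.167). The CD4/8 extraction selects against gamma delta cells with neither coreceptor. Of 292 neutrophil-type cells of the same libraries thinned alike, 2.4% carried a UMI of Cd8a, 0.342% of Cd4 and none of Foxp3 or Trdc, which allows up to 1.26%, so most Trdc shares lay near this background.

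**Figure D2:**
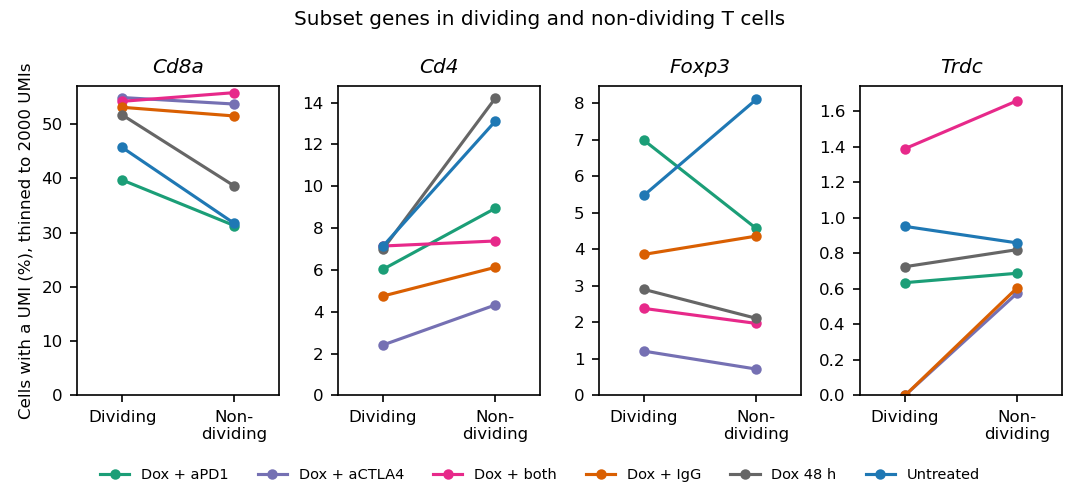
Share of cells (percent, vertical axis) with a UMI of Cd8a, Cd4, Foxp3 and Trdc in dividing and non-dividing T cells of the 6 CD4/8-positive libraries, each cell thinned to 2000 UMIs. Each line joins the 2 states of a library: the Cd4 lines are all lower in dividing cells, the Cd8a lines are higher in 5 of 6 libraries, and the Foxp3 lines run both ways.

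Read the other way round, a larger share of CD8 and of Foxp3 cells than of CD4 cells was dividing in every T cell library. Of CD8 cells, 11.6% divided after anti-PD1, 19.7% after anti-CTLA4, 16.5% after both, 12.7% after IgG, 12.3% 48 h after doxorubicin and 20.7% without treatment. Of CD4 cells with no Foxp3, 7.44% divided after anti-PD1, 9.38% after anti-CTLA4, 14.7% after both, 9.84% after IgG, 5.87% 48 h after doxorubicin and 9.54% without treatment. The CD8 share was higher by 6.14 ± 3.90 points (SD, n = 6), by 1.83 points at least, and passed the exact sign-flip permutation test (p = 0.0312, adjusted over 3 pairs 0.0469).

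Foxp3 cells were few. Of them, 21 of 133 (15.8%) divided after anti-PD1, 5 of 13 (38.5%) after anti-CTLA4, 8 of 50 (16.0%) after both, 10 of 96 (10.4%) after IgG, 9 of 77 (11.7%) 48 h after doxorubicin and 20 of 185 (10.8%) without treatment. Their share was higher than that of CD4 cells by 7.73 ± 10.9 points (SD, n = 6; exact sign-flip permutation p = 0.0312, adjusted 0.0469), and by 3.46 points without the anti-CTLA4 library and its 13 cells. Trdc cells numbered 4 to 23 a library, 0 to 4 of them dividing, and differed from CD4 cells by 0.987 ± 9.09 points (SD, n = 6; exact sign-flip permutation p = 0.75).

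Depth differed alongside the CD8 result. CD8 cells held more UMIs than CD4 cells in 5 of the 6 libraries, with medians of 6826.5 against 4206 48 h after doxorubicin and 10061 against 6234 without treatment, and division was called on all the UMIs of a cell. Foxp3 cells held more UMIs than CD4 cells in 3 libraries and fewer in 3. When division was called on the thinned counts instead, a choice made after the data were seen, CD8 cells stood 2.34 points above CD4 cells, in 6 of 6 libraries (exact sign-flip permutation p = 0.0312, adjusted 0.0938). Foxp3 cells stood 1.26 points above them, in 5 of 6 libraries (exact sign-flip permutation p = 0.219, adjusted 0.328). Neither passed after adjustment.

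**Figure D3:**
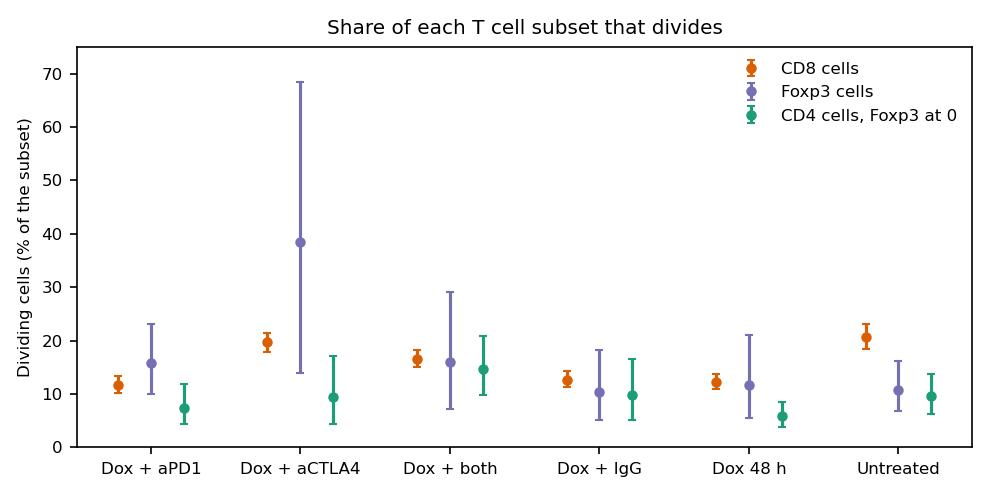
Share of CD8, Foxp3 and CD4 cells called dividing (percent, vertical axis) in each CD4/8-positive library, with exact 95% intervals. The CD8 points lie above the CD4 points in all 6 libraries, and the widest interval belongs to the 13 Foxp3 cells after anti-CTLA4.

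In the immune libraries the order of the subsets varied. CD8 cells divided in 13.6% and 8.29% after doxorubicin and in 34.2% and 21.3% without treatment. CD4 cells divided in 3 of 16 (18.8%) and 3 of 33 (9.09%) after doxorubicin. Without treatment they divided in 28 of 190 (14.7%) and 2 of 11 (18.2%). In these cells, thinned to 2000 UMIs, the CD8 share was the higher in both untreated libraries and in neither doxorubicin library. At full depth it was the higher in both doxorubicin libraries too, at 9.91% against 8.51% in replicate 2. With so few CD4 cells, no difference in this order between treatments can be read from these libraries.

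The balance of S phase against G2 and mitosis transcripts differed between libraries. The rule favours late cells because Mki67 and Top2a transcripts peak late in the cycle, and the sums below also depend on the size and level of each list, so they give no share of cells in a phase. In cells thinned to 2000 UMIs, the summed UMIs of 45 S phase genes exceeded those of 53 G2 and mitosis genes in 21.6% (95% exact interval 17.2% to 26.5%) of dividing cells after anti-PD1 and 34.2% (30% to 38.6%) after anti-CTLA4. The shares were 30.2% (26.2% to 34.4%) after both, 24.3% (19.8% to 29.3%) after IgG, 34.1% (29.5% to 38.8%) 48 h after doxorubicin and 25.0% (20.9% to 29.4%) without treatment. The mean was 28.2% ± 5.36 (SD, n = 6). In non-dividing cells thinned alike, the S phase list averaged 2.27 to 2.79 UMIs per cell and the G2 and mitosis list 2.9 to 3.16, so the second list was higher there too. The 48 h doxorubicin library stood above the untreated one with intervals that did not overlap, and no test was possible with 1 library each.

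The genes of dividing cells were set against those of non-dividing T cells of the same library, on summed counts in CPM. Since division genes chose the cells, this is a description with no test. Of 5029 genes at a mean of 20 CPM or more over both states, 524 (10.4%) were at least 1.5-fold higher in dividing cells of all 6 libraries, and 82 (1.63%) were at least 1.5-fold lower. The median log2 ratio of all 5029 was 0.05. A gene that is near 0 in resting cells passes the 20 CPM limit only through the dividing cells, so its counts below had to be high.

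Most S phase, G2 and mitosis genes above the limit were higher in dividing cells, and 13 of 45 S phase and 14 of 53 G2 and mitosis genes lay below it. Of 39 G2 and mitosis genes measured above that limit, 37 were higher, with a median log2 ratio of 3.94. Hmmr averaged 67.8 CPM in dividing and 0.435 CPM in non-dividing cells, with 61.2 to 79.9 CPM in the dividing cells of each library. Ccna2, the A-type cyclin of S and G2 phase, averaged 96.3 CPM in dividing and 0.91 CPM in non-dividing cells. Cenpf, a kinetochore protein, averaged 131 CPM in dividing and 1.82 CPM in non-dividing cells. No library's dividing value overlapped a non-dividing one for these genes.

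Of 32 S phase genes 29 were higher, with a median log2 ratio of 2.24. Rrm2, the regulated subunit of ribonucleotide reductase, averaged 133 CPM in dividing and 4.87 CPM in non-dividing cells (log2 4.78). Pcna, the replication clamp, stood at 329 CPM in dividing and 143 CPM in non-dividing cells (log2 1.13), a high level in both. Of 19 genes of nucleotide synthesis 18 were higher, with a median of 1.37. Tyms, thymidylate synthase, averaged 158 CPM in dividing and 16.1 CPM in non-dividing cells.

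All 16 spindle and cytokinesis genes above the limit were higher, with a median log2 ratio of 3.54. Among genes above the limit, with Mki67 and Top2a left out, the largest ratio was that of Esco2, which establishes cohesion between sister chromatids, at 42.4 CPM in dividing and 0.267 CPM in non-dividing cells (log2 7.27). Pclaf averaged 452 CPM in dividing and 5.56 CPM in non-dividing cells (log2 6.30). All 20 histone and chromatin genes were higher, with a median of 2.23. The linker histone Hist1h1b averaged 594 CPM in dividing and 8.76 CPM in non-dividing cells, and Hist1h2ab, a core histone outside that list, 99.8 CPM in dividing and 0.978 CPM in non-dividing cells. Histone genes share near-identical copies, so how reads were split between them is uncertain.

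Growth and metabolism genes had smaller ratios. Of 18 genes of the Myc and ribosome-making list 5 were higher (median log2 0.42), among them Srm, spermidine synthase, at 38.2 CPM in dividing and 14.8 CPM in non-dividing cells. Of 15 glycolysis genes 4 were higher, namely Tpi1, Pgam1, Pkm and Ldha, and the median of the list was 0.66. Ldha, which makes lactate, averaged 793 CPM in dividing and 435 CPM in non-dividing cells. Of 15 respiratory chain genes Atp5b and Cycs were higher (median 0.52), a share near the 10.4% of all tested genes that were called higher.

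The brakes of the cycle were not alike. Of 13 CDK inhibitor and quiescence genes, 3 were lower and 1 higher in dividing cells, and the median log2 ratio was -0.52. Cdkn1b, which encodes p27, was at 57.2, 75.5, 75.7, 73.0, 82.3 and 76.8 CPM in dividing cells after anti-PD1, anti-CTLA4, both, IgG, doxorubicin alone and no treatment, against 136, 147, 126, 129, 142 and 139 CPM in non-dividing cells. Every dividing value lay below every non-dividing value. Btg1, an antiproliferative factor, averaged 768 CPM in dividing and 1457 CPM in non-dividing cells (log2 -0.89), and its relative Btg2 159 CPM in dividing and 289 CPM in non-dividing cells (log2 -0.91). Cdkn2c, the p18 inhibitor of Cdk4 and Cdk6, was the member that was higher, at 32.6 CPM in dividing and 15.2 CPM in non-dividing cells (log2 1.04). Cdkn1a, the p21 inhibitor and a p53 target, was not called, at 97.8 CPM in dividing and 111 CPM in non-dividing cells.

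Among 7 G1 cyclins and kinases, Cdk4 (117 CPM in dividing, 47.9 CPM in non-dividing cells) and the pocket protein Rbl1 (32.9 CPM in dividing, 8.27 CPM in non-dividing cells) were higher. Rb1, Rbl2, Ccnd2 and Ccnd3 were not called, and Ccnd1 lay below the limit. Among the 8 genes with the lowest ratios, Hbp1, a transcriptional repressor of cycle genes, averaged 21.7 CPM in dividing and 50.6 CPM in non-dividing cells, and Kdm5b, a histone demethylase, averaged 12.5 CPM in dividing and 38.5 CPM in non-dividing cells. The lowest ratio was that of Tcp11l2, at 10.4 CPM in dividing and 51.8 CPM in non-dividing cells (log2 -2.41).

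T cell identity and effector lists held few called genes. None of 12 T cell receptor complex genes, 6 CD8 identity genes, 10 regulatory T cell genes, 10 inhibitory receptor genes or 16 activation genes was called, with median log2 ratios of -0.14, 0.02, 0.05, -0.15 and -0.10. Pdcd1, which encodes PD1, stood at 156 CPM in dividing and 137 CPM in non-dividing cells on average. Gzmb, the granzyme that kills target cells, stood at 428 CPM in dividing and 438 CPM in non-dividing cells.

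The median of 16 cytotoxic effector genes was -0.17. Gzmc had a median log2 ratio of 1.45 but ran from -1.83 to 2.52 over the libraries and was not called. Ccl5 was the only gene of the list that was called. This chemokine, which effector and memory CD8 cells store as ready message, was at 1268, 1521, 2141, 2362, 1374 and 2189 CPM in dividing cells after anti-PD1, anti-CTLA4, both, IgG, doxorubicin alone and no treatment, against 6936, 5496, 5629, 6979, 5476 and 7018 CPM in non-dividing cells. The highest dividing value lay below the lowest non-dividing one. The median log2 ratio was -1.77, and -1.86 in CD8 cells alone, an alternative added after the data were seen. In the immune libraries Ccl5 was at 2564 and 487 CPM in dividing cells after doxorubicin and 1069 and 1504 CPM without treatment, against 3905, 2814, 4015 and 8597 CPM in non-dividing cells of the same libraries.

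Xcl1, the chemokine that attracts cross-presenting dendritic cells, ran the other way without being called. It was at 1119, 786, 634, 452, 1169 and 1062 CPM in dividing cells after anti-PD1, anti-CTLA4, both, IgG, doxorubicin alone and no treatment, against 423, 311, 437, 338, 505 and 534 CPM in non-dividing cells. It was higher in dividing cells of every T cell library (median log2 1.1), but under 1.5-fold after IgG and both antibodies.

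Most genes of resting and recirculating T cells were not called, and those that were called were lower. Of 13 naive and memory genes above the limit 2 were called lower and none higher, and the median was -0.73. Il7r, the interleukin 7 receptor that keeps resting T cells alive, averaged 60.9 CPM in dividing and 123 CPM in non-dividing cells (log2 -0.99), and Bcl2, a survival factor, 90.0 CPM in dividing and 193 CPM in non-dividing cells (log2 -1.09). Klf2, a factor of quiescence and recirculation, averaged 99.5 CPM in dividing and 199 CPM in non-dividing cells, and missed the call after IgG. The 13 homing and residence genes had a median of -0.59 with none called.

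Of 13 type I interferon response genes 4 were lower, namely Ifit1, Ifit3, Rtp4 and Slfn1, and the median of the list was -0.60. Ifit3, an interferon-induced antiviral gene, averaged 12.4 CPM in dividing and 36.0 CPM in non-dividing cells. Of 11 p53 targets Ckap2 was higher and Btg2 lower, and both also belong to lists given above. Over all tested genes 10.4% were called higher and 1.63% lower.

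**Figure D4:**
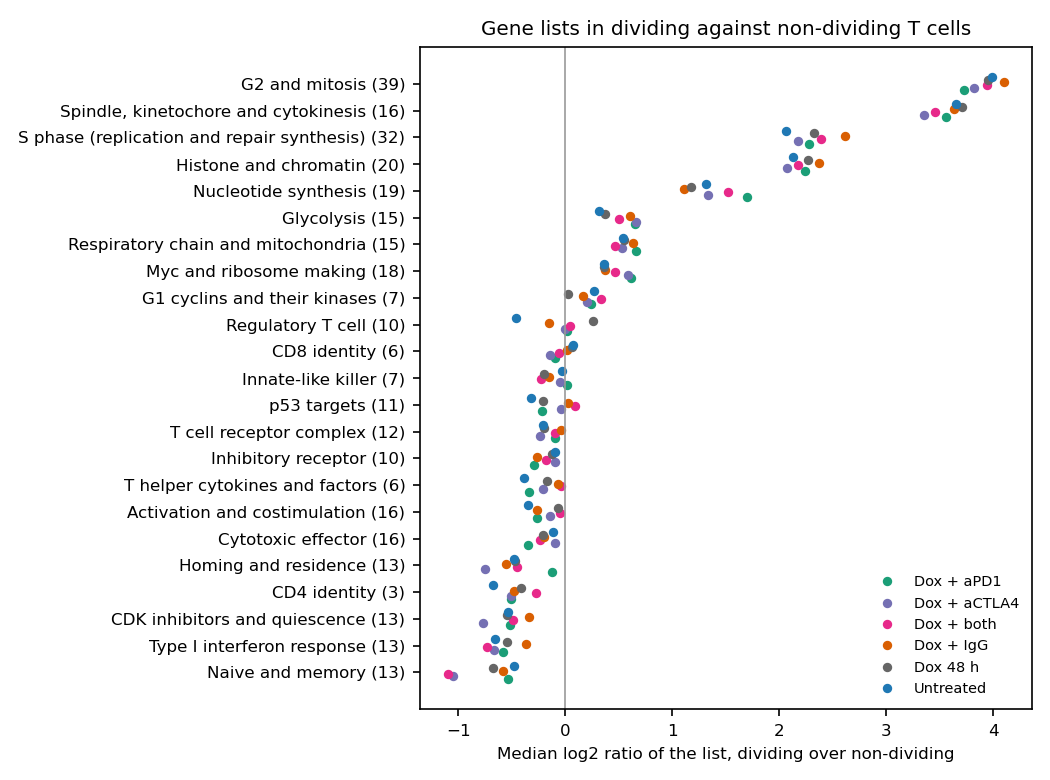
Median log2 ratio of dividing against non-dividing T cells (horizontal axis) for each of 23 gene lists, with the number of genes above the 20 CPM limit in brackets and a point for each CD4/8-positive library (Dox, doxorubicin; aPD1, anti-PD1; aCTLA4, anti-CTLA4). The G2 and mitosis list runs from 3.72 to 4.1 and the S phase list from 2.06 to 2.61 over the 6 libraries, while the naive and memory list runs from -1.1 to -0.48.

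The motifs of the printed promoters were counted in all RefSeq promoters of the same length. Of the 37 G2 and mitosis genes higher in dividing cells, 32 had a promoter in the table, and 84.4% of these held a CHR element and 78.1% a CCAAT box, with 71.9% holding both. Of 21 promoters of higher S phase genes, 9.52% held a CHR element, 66.7% a CCAAT box and 47.6% an E2F element, against 3.12% with an E2F element for the G2 and mitosis genes. Over 27025 promoters of the whole table the shares were 18.1% for CHR, 37.8% for the CCAAT box, 4.67% for E2F and 7.01% for CHR with CCAAT. Over the 4055 promoters of genes tested they were 12%, 38.1%, 9.05% and 5.15%. Of 431 promoters of all genes higher in dividing cells, 20% held a CHR element, 53.4% a CCAAT box and 17.9% an E2F element. Of 65 promoters of genes lower in dividing cells, 18.5% held a CHR element and 30.8% a CCAAT box. A match describes these letters in these windows and is not a site.

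Between treatments, dividing cells were compared on summed counts with 1 library per treatment, so no test was possible. A gene is called below when it reached 50 CPM in either library, was at least 2-fold apart, and had an exact 95% interval of the ratio that left out 1. These intervals cover counting error only. Median-ratio scaling moved the log2 ratios of all genes by 0.15 in the comparison of doxorubicin with no treatment and by 0.11 in that of anti-CTLA4 with IgG, and by 0.08 or less in the others.

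Dividing T cells 48 h after doxorubicin had less Gzmb, Gzma and Gzmk, granzymes of killer cells, than dividing T cells of untreated tumours. Of 2821 genes 39 (1.38%) were called higher and 18 (0.638%) lower. Gzmb stood at 176 CPM after doxorubicin and 634 CPM without treatment (ratio 0.278, 95% interval 0.262 to 0.295), and at 194 CPM after doxorubicin and 733 CPM without treatment in non-dividing cells. Gzma stood at 318 CPM after doxorubicin and 1534 CPM without treatment, and Gzmk at 31.3 CPM after doxorubicin and 69.7 CPM without treatment. These 3 were the cytotoxic genes called lower of 13, and none was called higher. Gzmc, below the 50 CPM limit in both, ran the other way, at 36.6 CPM after doxorubicin and 13.7 CPM without treatment. NK cell markers summed to 766 CPM after doxorubicin and 1892 CPM without treatment, and Gzma is among them. In dividing CD8 cells alone Gzmb was at 203 CPM after doxorubicin and 708 CPM without treatment.

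Ccl1, a chemokine of activated T cells, was higher, at 526 CPM after doxorubicin and 129 CPM without treatment (ratio 4.06, 3.82 to 4.33), and 1 cell held 24.5% of its counts in the untreated library. Ccr7, the lymph node homing receptor, stood at 169 CPM after doxorubicin and 67.6 CPM without treatment, and Ccng1, a p53 target, at 68.6 CPM after doxorubicin and 33.3 CPM without treatment. Cdkn1a stood at 112 CPM after doxorubicin and 62.9 CPM without treatment (ratio 1.77, 1.6 to 1.97), under the 2-fold limit. Pdcd1 stood at 156 CPM after doxorubicin and 110 CPM without treatment (ratio 1.41), and Ifng at 137 CPM after doxorubicin and 135 CPM without treatment. No S phase gene of 26 and no G2 and mitosis gene of 35 was called in either direction.

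The lowest ratios in that comparison were those of matrix genes held by very few cells. Mgp stood at 14.0 CPM after doxorubicin and 153 CPM without treatment, and 1 cell held 91.4% of its counts after doxorubicin and 96.4% without treatment. Col1a1, Col1a2 and Bgn had 57.2% to 82.5% of their counts in 1 cell of each library. In dividing CD8 cells alone these 4 genes had ratios of 34.4, 6.8, 14.3 and 50.1, the opposite direction. Apoe, a lipid carrier of macrophages, stood at 77.1 CPM after doxorubicin and 18.5 CPM without treatment, and was also higher in non-dividing cells, at 125 CPM after doxorubicin and 41.9 CPM without treatment. The macrophage markers summed to 112 CPM after doxorubicin and 59.2 CPM without treatment, none of the 8 at 0. Apoe is itself 1 of these 8, so the sum is no separate measure of macrophage RNA. The part of macrophage RNA in the Apoe difference was not tested.

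The 3 antibody libraries were each set against the IgG library, which they share as their reference. After anti-PD1, 19 genes of 2770 (0.686%) were called higher and 35 (1.26%) lower. The lower ones held 4 cytotoxic genes of 14. Prf1, which encodes the pore-forming perforin, stood at 27.9 CPM after anti-PD1 and 260 CPM after IgG (ratio 0.107, 0.0904 to 0.126). Ifng, the main effector cytokine, stood at 96.1 CPM after anti-PD1 and 407 CPM after IgG (ratio 0.236, 0.215 to 0.259), and Ccl3 at 84.9 CPM after anti-PD1 and 331 CPM after IgG. Ccl4, a relative of Ccl3, stood at 94.7 CPM after anti-PD1 and 350 CPM after IgG. The same 4 genes had ratios of 0.217, 0.304, 0.293 and 0.382 in non-dividing cells. In dividing cells 48 h after doxorubicin and without treatment, Prf1 stood at 49.2 and 44.5 CPM and Ifng at 137 and 135 CPM. Ccl3 stood at 106 and 92.9 CPM in these libraries, and Ccl4 at 155 and 237 CPM. For Prf1, Ifng and Ccl3 these values lay nearer the anti-PD1 value than the IgG value.

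Gzmb did not follow Prf1, Ifng, Ccl3 and Ccl4 in anti-PD1 dividing cells, at 459 CPM after anti-PD1 and 499 CPM after IgG. The inhibitory receptor Lag3 was lower, at 70.2 CPM after anti-PD1 and 184 CPM after IgG, while Pdcd1 was at 121 CPM after anti-PD1 and 129 CPM after IgG. Il2ra, the high-affinity interleukin 2 receptor chain, was higher, at 111 CPM after anti-PD1 and 49.3 CPM after IgG, as was the costimulatory receptor Tnfrsf4, at 346 CPM after anti-PD1 and 165 CPM after IgG. Both belong to the regulatory T cell list, and Foxp3 stood at 36.6 CPM after anti-PD1 and 20.1 CPM after IgG. In dividing CD8 cells alone the ratio was 1.57 for Il2ra and 1.91 for Tnfrsf4. Gzmc stood at 90.0 CPM after anti-PD1 and 35.5 CPM after IgG, and 1 cell held 62.5% of its IgG counts. Apoe stood at 128 CPM after anti-PD1 and 48.6 CPM after IgG. The macrophage markers, which include Apoe, summed to 177 CPM after anti-PD1 and 74.8 CPM after IgG, and the part of macrophage RNA was not tested.

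After anti-CTLA4, 32 genes of 2896 (1.1%) were called higher and 12 (0.414%) lower. Ifitm1, an interferon-induced membrane protein, stood at 221 CPM after anti-CTLA4 and 52.0 CPM after IgG (ratio 4.25, 3.83 to 4.74), and at 386 CPM after anti-CTLA4 and 106 CPM after IgG in non-dividing cells. Ifitm1 was also called higher in dividing cells after anti-PD1, at 199 CPM (ratio 3.82 to IgG). Its IgG value was the lowest of the 6 T cell libraries in dividing cells, with 114 CPM 48 h after doxorubicin and 162 CPM without treatment. Iigp1, an interferon-induced GTPase, stood at 68.3 CPM after anti-CTLA4 and 15.9 CPM after IgG, but at 35.6 CPM after anti-CTLA4 and 39.2 CPM after IgG in non-dividing cells, and 1 cell held 21.0% of its anti-CTLA4 counts. The inhibitory receptor Havcr2 stood at 76.2 CPM after anti-CTLA4 and 30.5 CPM after IgG. Dapl1, a gene of naive and memory CD8 cells, stood at 17.6 CPM after anti-CTLA4 and 103 CPM after IgG (ratio 0.171, 0.146 to 0.198), and Klf2 at 50.5 CPM after anti-CTLA4 and 102 CPM after IgG. Foxp3 was at 4.14 CPM after anti-CTLA4 and 20.1 CPM after IgG, below the 50 CPM limit in both. It was also lower in non-dividing cells, at 3.71 CPM after anti-CTLA4 and 23.0 CPM after IgG. In summed counts fewer Foxp3 cells and less Foxp3 RNA per cell cannot be told apart, and 11 of 499 dividing cells carried a Foxp3 UMI after anti-CTLA4 and 35 of 337 after IgG.

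Lcn2 and Csn3, genes of mammary epithelium, were also called higher after anti-CTLA4, at 89.6 and 87.4 CPM against 21.8 and 26.9 CPM after IgG. The cell with the most Csn3 counts held 28.8% of them after anti-CTLA4 and 44.7% after IgG. For Lcn2 the highest cell held 15.2% after anti-CTLA4 and 38.9% after IgG. Epithelial markers in dividing cells summed to 204 CPM after anti-CTLA4 and 77.1 CPM after IgG, with none of the 8 at 0. Csn3 is itself among these 8, so the sum is no separate measure of epithelial RNA for its call. The part of epithelial RNA in these calls was not tested.

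After both antibodies, 20 genes of 2764 (0.724%) were called higher and 10 (0.362%) lower. Ifitm1 stood at 327 CPM after both and 52.0 CPM after IgG (ratio 6.29, 5.67 to 6.99), and Ccl1 at 467 CPM after both and 87.1 CPM after IgG (ratio 5.36, 4.95 to 5.82). The heat shock genes Hspa1a and Hspa1b, near-identical copies whose reads may be split, stood at 100 and 67.7 CPM after both and 26.9 and 14.7 CPM after IgG. They stood at 84.0 and 66.4 CPM after anti-CTLA4, where Hspa1b was also called higher. For each of them IgG was the lowest of the 6 T cell libraries in dividing cells. Dapl1 was lower, at 22 CPM after both and 103 CPM after IgG, as was Eomes, a factor of memory and killer cells, at 20.8 CPM after both and 56.2 CPM after IgG. Dapl1 and Eomes were also called lower after anti-PD1, at 46.9 and 14.5 CPM, and after anti-CTLA4, at 17.6 and 26.9 CPM. For each of them IgG was the highest of the 6 T cell libraries in dividing cells. The interferon-induced gene Isg15 stood at 57.1 CPM after both and 153 CPM after IgG. Pdcd1 was at 220 CPM after both and 129 CPM after IgG (ratio 1.7, 1.58 to 1.83), under the 2-fold limit. Prf1 stood at 127 CPM after both and 260 CPM after IgG, the 1 cytotoxic gene of 15 called.

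Dividing cells of the IgG library, which was taken later after doxorubicin, were set against the 48 h library. Harvest time and IgG differ together there and cannot be told apart. Of 2817 genes 22 (0.781%) were called higher and 16 (0.568%) lower. Of 14 cytotoxic genes 7 were called higher and none lower. NK cell markers summed to 1415 CPM after IgG and 766 CPM at 48 h, of which Gzma alone gave 903 and 318 CPM. The part of NK cell RNA in these calls was not tested. Prf1 stood at 260 CPM after IgG and 49.2 CPM at 48 h (ratio 5.29, 4.73 to 5.92), Ifng at 407 CPM after IgG and 137 CPM at 48 h, and Gzmb at 499 CPM after IgG and 176 CPM at 48 h. Gzma, Gzmk, Ccl3 and Ccl4 were the others, with ratios of 2.84, 2.49, 3.11 and 2.26. Prf1, Ifng, Gzmb, Gzma and Ccl4 were also more than 2-fold higher in non-dividing cells, with ratios of 4.42, 3.14, 2.59, 2.57 and 2.26. Ccl1 was lower, at 87.1 CPM after IgG and 526 CPM at 48 h, and so was Hspa1b, at 14.7 CPM after IgG and 82.2 CPM at 48 h. The mitochondrial gene mt-Atp8 stood at 95.2 CPM after IgG and 31.0 CPM at 48 h.

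Within dividing CD8 cells alone, an alternative added after the data were seen, genes called higher were again at least 2-fold higher in 35 of 39 cases for doxorubicin against no treatment, 14 of 19 for anti-PD1, 29 of 32 for anti-CTLA4, 17 of 20 for both antibodies and 18 of 22 for IgG against 48 h. Genes called lower were so again in 9 of 18, 30 of 35, 12 of 12, 8 of 10 and 14 of 16 cases in the same order. CD8 cells are most of the dividing cells, so much of this overlap is built in.

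**Figure D5:**
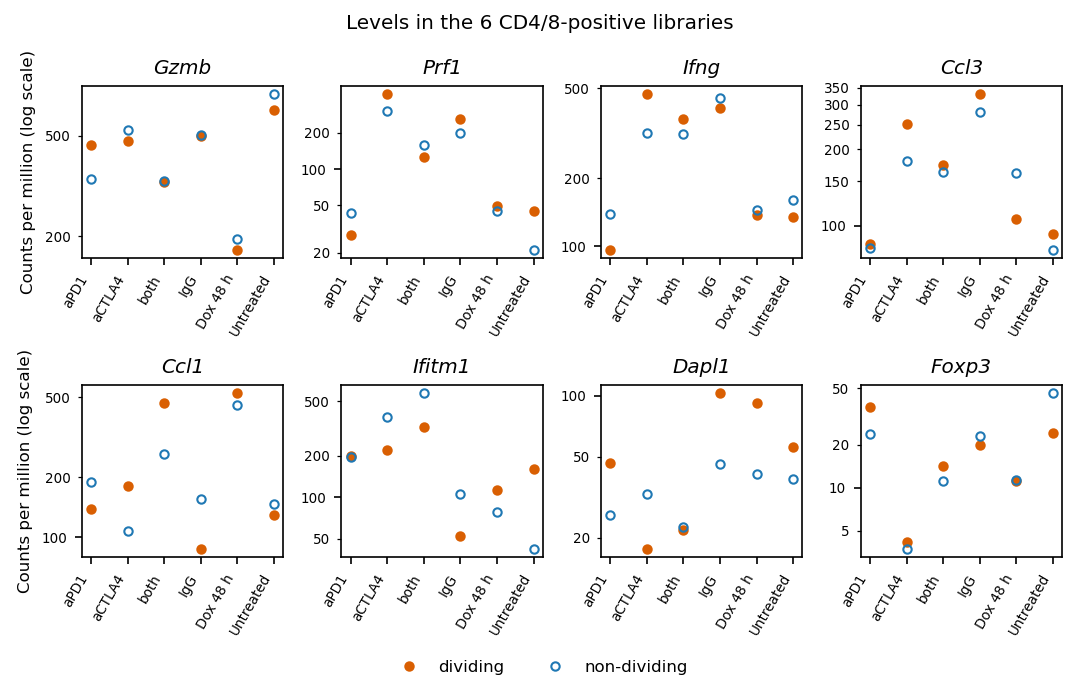
Level of 8 genes (CPM, log scale) in dividing (filled) and non-dividing (open) T cells of each CD4/8-positive library (aPD1, anti-PD1; aCTLA4, anti-CTLA4; Dox 48 h, doxorubicin alone). Filled points of Prf1, Ifng and Ccl3 are lowest after anti-PD1, at 27.9, 96.1 and 84.9 CPM, and those of Ccl1 are highest in the libraries 48 h after doxorubicin and after both antibodies, at 526 and 467 CPM.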

How the data were processed

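The deposited single-cell files hold UMI counts per gene and cell, made by the authors with Cell Ranger 6.0.0 per the file headers and on build GRCm38/mm10 per the labels; the counter's version for the pooled table is not given in the sources used here. Chromium 3′ kits were used, per the labels. The sorted matrices carry no gene names, so their rows were named by the gene order of the pooled table. Over 32285 genes the means then correlated at 0.954 to 0.984, against 0.354 at best when shifted by up to 50 rows, and 3127 of 3140 windows fitted best unshifted. Barcodes, the bulk RNA and the chromatin libraries were not analysed here, and 12 columns of the bulk table match no sample.

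Counts were summed per library and state and scaled to CPM. No doublet caller was run: in the T cell libraries 0% to 1.98% of dividing cells carried both Cd4 and Cd8 UMIs after thinning to 2000 UMIs, while at full depth 5.61% to 15.1% of dividing and 3.61% to 6.94% of non-dividing cells carried genes of more than 1 subset. Subset genes and shares were compared over the 6 T cell libraries by exact sign-flip permutation tests, and immune libraries by an exact permutation test, with Benjamini-Hochberg adjustment. The steps were checked on simulated data. Between states, the genes named by rule were Cd8a, Cd4, Foxp3 and Trdc, the 10 highest and 8 lowest median log2 ratios among genes changed the same way in all 6 libraries, and the 3 members of each list farthest from 0. In each treatment comparison they were Pdcd1, Ctla4, Gzmb, Ifng, Foxp3 and Cdkn1a, the 6 highest and the 4 lowest called ratios. The text gives only part of the genes named by rule, and leaves out Ctla4 among others. Genes in the text outside these rules are list members or genes chosen after their values were seen. The members and gene lists were chosen with earlier results of these data known. Python 3.11.15, numpy 2.4.6, scipy 1.17.1, pandas 2.3.3 and matplotlib 3.10.9 were used.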

Additional observations from a re-analysis of the deposited data

Results flagged for a closer look

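Dividing T cells also appeared in the table of unsorted tumour cells, which no comparison above used. They were 43 of 414 T cells there, 10.4% (95% exact interval 7.62% to 13.7%) against 8 of 609 neutrophil-type cells of the same table (1.31%), which were shallower than the dividing cells of the sorted libraries at a median of 3478 UMIs. The 2 sets of barcodes in that table held 19 dividing of 151 T cells and 24 of 263, and the labels do not say which set is the doxorubicin-treated tumour.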

How the results depend on the processing

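With 1 library per treatment, differences between T cell libraries have no replicate check, and intervals cover counting error only. Rare subsets limit the subset results: Foxp3 cells numbered 13 to 185 and Trdc cells 4 to 23 a library.

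The difference of mean shares in the immune libraries kept its sign under every alternative run, from -17.2 to -6.83 points, and from -10.8 to -7.83 with 1 library left out. With the replicate block, which pairs libraries by number, it was -9.31 (2 pairs, exact sign-flip permutation p = 0.5, the smallest they allow); the numbers mark no stated shared animal or day. At full depth the dividing minus non-dividing differences were 14.2 points for Cd8a, 3.46 for Cd4, 4.24 for Foxp3 and 0.554 for Trdc. Trdc was 0.206 at 4000 UMIs. Foxp3 was -0.0241 with division at 5 or more UMIs. With the immune libraries of 30 or more dividing cells Cd4 was -4.12 and Foxp3 -0.488. Leaving out 1 library gave -0.288 (without anti-PD1) to 0.721 for Foxp3, -3.86 to -2.47 for Cd4, 4.52 to 7.64 for Cd8a and -0.321 to -0.181 for Trdc.

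For the shares within subsets, CD8 minus CD4 was 5.04 points with division at 5 or more UMIs, 4.11 at 2 or more, 5.19 with Krt18 and Lyz2 at 0, 2.34 with division called on thinned counts (added after the data were seen) and 5.13 to 7.0 with 1 library left out. Foxp3 minus CD4 was 6.17, 6.59, 6.78 and 1.26 in the first 4 of these, 3.61 with the immune libraries, and 3.46 to 9.16 with 1 left out. Trdc minus CD4 was -2.77 at 2 or more UMIs and -1.35 to 3.15 with 1 left out. With 5 libraries the sign-flip test cannot pass 0.05. Where not stated, the cause of a change was not tested.

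Genes higher in dividing cells numbered 218 at 2-fold, 823 from 5 CPM, 340 on thinned cells and 529 to 554 with 1 library left out. Genes lower numbered 6 at 2-fold, 135 with division at 5 or more UMIs, 135 from 5 CPM, 35 on thinned cells and 82 to 104 with 1 left out. Of those higher, 327 of the 340 on thinned cells and 469 of 498 in CD8 cells were shared with the 524. For doxorubicin against no treatment 24 genes were higher with median-ratio scaling and 103 from 20 CPM, while 33 were lower from 20 CPM and 10 in CD8 cells alone. There the ratios of Mgp, Col1a1, Col1a2 and Bgn turned round, at 34.4, 6.8, 14.3 and 50.1. From 20 CPM and on thinned cells, anti-PD1 had 36 and 59 genes higher with 84 and 66 lower, anti-CTLA4 84 and 64 higher, and both antibodies 33 and 52 higher with 34 and 20 lower. Anti-CTLA4 had 27 lower from 20 CPM, and IgG against 48 h had 39 lower in each. Lower limits admit more genes.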

Other observations

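Within CD8 cells thinned to 2000 UMIs, genes of activation went both ways. Tnfrsf9, the costimulatory receptor 4-1BB, was detected in 13.9% to 39.9% of dividing and 9.37% to 28.6% of non-dividing CD8 cells over the 6 T cell libraries, and was higher in dividing cells of 6, with intervals apart in 2. The costimulatory receptor Icos was detected in 16.9% to 28.6% of dividing and 17.1% to 33.3% of non-dividing CD8 cells and was higher in none of the 6, and Cd69, an early activation marker, in 21.9% to 34.9% of dividing and 21.6% to 39.8% of non-dividing CD8 cells, higher in 1. The chemokine gene Xcl1 was detected in 28.3% to 45.4% of dividing and 17.6% to 24.3% of non-dividing CD8 cells, higher in 6 libraries and apart in 5. Ccr7 was detected in 8.88% to 19.1% of dividing and 7.44% to 9.08% of non-dividing CD8 cells. Ccl5 was detected in 56.5% to 73.9% of dividing and 84.8% to 91.7% of non-dividing CD8 cells, lower and apart in 6 libraries. The chemokine gene Ccl4 was detected in 14.8% to 28.1% of dividing and 23.7% to 42.9% of non-dividing CD8 cells, lower and apart in 3. Gzmb was near level, at 19.4% to 42.9% of dividing and 22.3% to 45.0% of non-dividing CD8 cells. These are descriptions with no test.

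In the immune libraries, with 12 to 185 dividing cells each, Btg1 had log2 ratios of dividing to non-dividing cells of -1.31 and -1.18 after doxorubicin and -1.23 and -0.91 without treatment. Cdkn1b stood at -1.61 and -1.14 after doxorubicin and -1.19 and -0.71 without treatment. Gzmb went both ways, at 0.42 and -2.07 after doxorubicin and 0.96 and 0.51 without treatment.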
